A study of Mus musculus with 12 samples.

Results

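Hemoglobin and erythroid genes were examined in RNA sequencing data from mouse skin wounds treated with capsaicin (CAP), the pungent compound of chili peppers. The 6 genes were Hba-a1 and Hba-a2 (adult α-globin), Hbb-bs and Hbb-bt (adult β-globin), Alas2 (the erythroid enzyme that starts heme synthesis) and Slc4a1 (band 3, the anion exchanger of the red cell membrane). They were taken from the deposited tables by gene name, and all 6 were found among the 55487 genes listed. The genes had been picked with the day 3 comparison of CAP-treated and sham wounds in view, so every value of theirs that rests on day 3 libraries is given as a description, without a test. Only the comparison of the treatments at day 6 was tested for them.

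The wounds were full-thickness punch wounds on the backs of male C57BL/6JNarl mice aged 6 weeks, with 2 wounds per mouse. The sham group received Pluronic F127 gel alone, and CAP-treated wounds received 10 µM CAP in the same gel, both once daily on the wound. Tissue was taken at day 3 and at day 6, with 3 libraries for each treatment and day and 12 in all. Wounding and the gel were common to all 4 groups, no unwounded skin was analysed here, and the sources used here do not say whether libraries came from the same mouse. The n below therefore counts libraries, and p-values measure the spread between libraries.

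Hemoglobin is built from pairs of α-globin and β-globin chains, each of which holds a heme group that binds oxygen. Red cells make it while they mature, and the youngest red cells in circulation, the reticulocytes, have lost the nucleus but still carry globin mRNA. In skin, these transcripts are therefore known mainly as a sign of blood in the tissue. In bulk RNA, fewer cells of a type and less RNA per cell cannot be told apart.

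On the mouse genome GRCm38, with GENCODE M21 gene models, the α-globin genes lie on chromosome 11 as neighbours on the plus strand, Hba-a1 at 32283511 to 32284465 and Hba-a2 at 32296489 to 32297298. The β-globin genes lie on chromosome 7 on the minus strand, Hbb-bs at 103826534 to 103828096 and Hbb-bt at 103812524 to 103813996. All 4 have 3 exons in their longest transcript. Alas2 has 11 exons and lies on chromosome X at 150547375 to 150570638 on the plus strand, and Slc4a1 has 20 exons and lies on chromosome 11 at 102348824 to 102366203 on the minus strand. The copies within each globin pair are nearly the same sequence: the coding sequences of Hba-a1 and Hba-a2 differed at 1 of 429 bases, and those of Hbb-bs and Hbb-bt at 1 of 444 bases. Of all 31-base stretches of their transcripts, 75.5% for Hba-a1, 92.6% for Hba-a2, 54.4% for Hbb-bs and 59.4% for Hbb-bt also occurred in another gene, whereas Alas2 and Slc4a1 had 0 such stretches. How the reads were divided within a pair is thus uncertain, and the sums over a pair depend less on it. Alas2 overlaps Apex2, a DNA repair gene on the opposite strand, which ranged from 4.39 to 7.7 TPM and had a correlation of −0.51 with the mean level of the 6 genes over the 12 libraries.

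The 250 bases before the RefSeq start are shown for 4 of the genes, because these genes moved together and promoters of red cell genes are known for GATA, CACCC and CCAAT motifs beside a TATA box. Capitals mark matches, on either strand, to 4 motifs. The first was CACCC, the next CCAAT, and the TATA motif was TATAA. The GATA motif was AGATAA or AGATAG, or either of these with T as the first base. The build is GRCm38.p6, and each sequence reads 5′ to 3′ on the strand of its gene: chr11:32283422-32283671 on the plus strand for Hba-a1, chr7:103827929-103828178 on the minus strand for Hbb-bs, chr7:103813924-103814173 on the minus strand for Hbb-bt, and chrX:150547167-150547416 on the plus strand for Alas2.
Hba-a1: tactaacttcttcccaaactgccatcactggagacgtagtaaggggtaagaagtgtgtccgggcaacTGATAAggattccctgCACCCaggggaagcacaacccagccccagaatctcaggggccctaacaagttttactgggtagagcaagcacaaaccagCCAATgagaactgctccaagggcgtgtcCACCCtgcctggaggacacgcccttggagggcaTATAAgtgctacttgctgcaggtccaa
Hbb-bs: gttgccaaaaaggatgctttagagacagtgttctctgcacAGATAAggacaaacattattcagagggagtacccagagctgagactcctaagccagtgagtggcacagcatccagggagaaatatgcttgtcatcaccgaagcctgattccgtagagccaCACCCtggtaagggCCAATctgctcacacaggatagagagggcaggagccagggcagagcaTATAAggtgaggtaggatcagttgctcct
Hbb-bt: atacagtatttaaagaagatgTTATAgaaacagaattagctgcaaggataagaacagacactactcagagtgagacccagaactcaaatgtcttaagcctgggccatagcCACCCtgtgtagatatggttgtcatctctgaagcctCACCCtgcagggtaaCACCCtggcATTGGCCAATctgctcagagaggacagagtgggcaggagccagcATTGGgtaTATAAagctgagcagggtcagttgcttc
Alas2: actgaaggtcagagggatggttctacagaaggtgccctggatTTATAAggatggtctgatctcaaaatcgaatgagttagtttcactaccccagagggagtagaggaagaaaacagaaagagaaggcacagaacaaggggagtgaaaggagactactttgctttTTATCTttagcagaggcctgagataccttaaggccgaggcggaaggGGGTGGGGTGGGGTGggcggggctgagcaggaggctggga

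The window of Hba-a2 (chr11:32296242-32296491, plus strand) was identical to that of Hba-a1 over all 247 bases they share after a shift of 3 bases. The β-globin windows, aligned without gaps, were identical at only 51% of 249 bases, although their coding sequences differ at a single base. The α-globin windows and that of Hbb-bs held all 4 motifs, with the TATAA match of Hba-a1 27 to 23 bases before the start and that of Hbb-bs 29 to 25 bases before it. Hbb-bt had 0 matches to the GATA motif, 3 to CACCC and 3 to CCAAT, of which 2 adjoin each other on opposite strands. Alas2 had 1 GATA match, 3 CACCC matches in a row on the minus strand, 0 CCAAT matches and 2 TATAA matches that overlap on opposite strands. Single motifs were common among the 32851 promoter windows of the RefSeq table, with GATA in 26.5%, CACCC in 52%, CCAAT in 33.8% and TATAA in 22.8%, and all 4 motifs together occurred in 1.08%. These are matches of letters, which do not show that a factor binds there. RefSeq windows were found for 5 of the 6 genes, not for Slc4a1. All 5 RefSeq starts lie within the M21 gene models, those of Hba-a1 and Hbb-bs farthest inside.

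The values are in TPM, a share of transcripts that is scaled for transcript length and to the same sum in each library, and so can be compared between genes, but carry no read depth. Each library had 18533 to 19325 genes at 0.3 TPM or more. Libraries correlated with r of 0.956 to 0.975 within groups and 0.934 to 0.975 between groups. The tissue label was borne out by skin genes, with the basal keratins Krt5 at 3655 to 8736 TPM and Krt14 at 6740.0 to 20003 TPM, and the dermal collagen Col1a1 at 2704 to 7051 TPM. CAP-treated day 6 replicate 2 stood apart, with the lowest summed level of endothelial (138 TPM) and neutrophil markers (413 TPM) and the highest of keratinocyte markers (104580 TPM). The column names of all day 3 libraries end in the same number and those of all day 6 libraries in another, whose meaning is not given, so that day and any batch that goes with it cannot be told apart.

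The 4 globin genes were among the abundant transcripts of these wounds, and all followed the same course: lowest in sham wounds at day 3, higher in CAP-treated wounds at day 3 and in sham wounds at day 6, and widely spread in CAP-treated wounds at day 6. Hba-a1, an α-globin gene, had 221, 170.1 and 159 TPM in the sham libraries of day 3 and 700.1, 781 and 862 TPM in the CAP-treated libraries of day 3, in the order of replicates 1, 2 and 3. The day 6 values were 772, 657 and 1714 TPM in sham libraries and 392, 219.8 and 977 TPM in CAP-treated libraries. All day 3 CAP-treated libraries lay above all day 3 sham libraries, whereas at day 6 the ranges of the treatments overlapped. The group means of Hba-a1 were 184 ± 33.0 TPM (sham, day 3), 781 ± 81.0 TPM (CAP, day 3), 1047 ± 579.9 TPM (sham, day 6) and 529 ± 397 TPM (CAP, day 6; SD, n = 3 each).

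Hba-a2, the other α-globin gene, had a slightly higher TPM than Hba-a1 in each library, with the division of reads between them uncertain. At day 3 it had 243, 184 and 172 TPM in sham libraries and 782, 859.7 and 940.0 TPM in CAP-treated libraries. The day 6 values were 845, 728 and 1877 TPM in sham libraries and 434, 241 and 1071 TPM in CAP-treated libraries. Its lowest day 6 value, in CAP-treated replicate 2, lay within the range of the day 3 sham libraries. Hba-a2 stood between place 51 (sham, day 6, replicate 3) and place 856 (sham, day 3, replicate 3) among all genes ordered by TPM.

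Hbb-bs, an adult β-globin gene, had 189.8, 125 and 117 TPM in the sham libraries of day 3 and 564, 602 and 652 TPM in the CAP-treated libraries of day 3. By day 6, Hbb-bs stood at 593, 457 and 1311 TPM in sham libraries and 299, 166 and 734 TPM in CAP-treated libraries. The same sham library of day 6, replicate 3, was the highest of all 12, and the same CAP-treated library, replicate 2, the lowest of day 6. Hbb-bt, the second adult β-globin gene, had 93.7, 69.5 and 62.4 TPM in sham and 293, 304 and 328 TPM in CAP-treated libraries at day 3. By day 6, Hbb-bt stood at 301, 256 and 677 TPM in sham and 154, 84.7 and 376 TPM in CAP-treated libraries. Its group means, 75.2 ± 16.4, 309 ± 18.0, 411 ± 231 and 205 ± 152 TPM (SD, n = 3 each) for sham day 3, CAP day 3, sham day 6 and CAP day 6, had the same order as those of Hba-a1.

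Alas2, the erythroid form of the enzyme that condenses glycine and succinyl-CoA in the first step of heme synthesis, was far less abundant than the globins but took the same course. It had 5.46, 3.53 and 3.41 TPM in sham and 16.8, 18.9 and 20.5 TPM in CAP-treated libraries at day 3. At day 6 it had 15.2, 15.4 and 42.03 TPM in sham and 8.34, 3.97 and 26.0 TPM in CAP-treated libraries. The group means were 4.13 ± 1.15, 18.7 ± 1.87, 24.2 ± 15.4 and 12.8 ± 11.6 TPM (SD, n = 3 each) in the same order of groups. Slc4a1, whose band 3 protein exchanges chloride and bicarbonate across the red cell membrane, was close to the limit of these tables. It had 0.123, 0.0001 and 0.0775 TPM in sham and 0.327, 0.481 and 0.405 TPM in CAP-treated libraries at day 3, where 0.0001 stands in the tables in place of 0. At day 6 it had 0.315, 0.189 and 0.779 TPM in sham and 0.114, 0.0001 and 0.556 TPM in CAP-treated libraries. The libraries that were highest and lowest at day 6 were thus again the same.

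**Figure D1:**
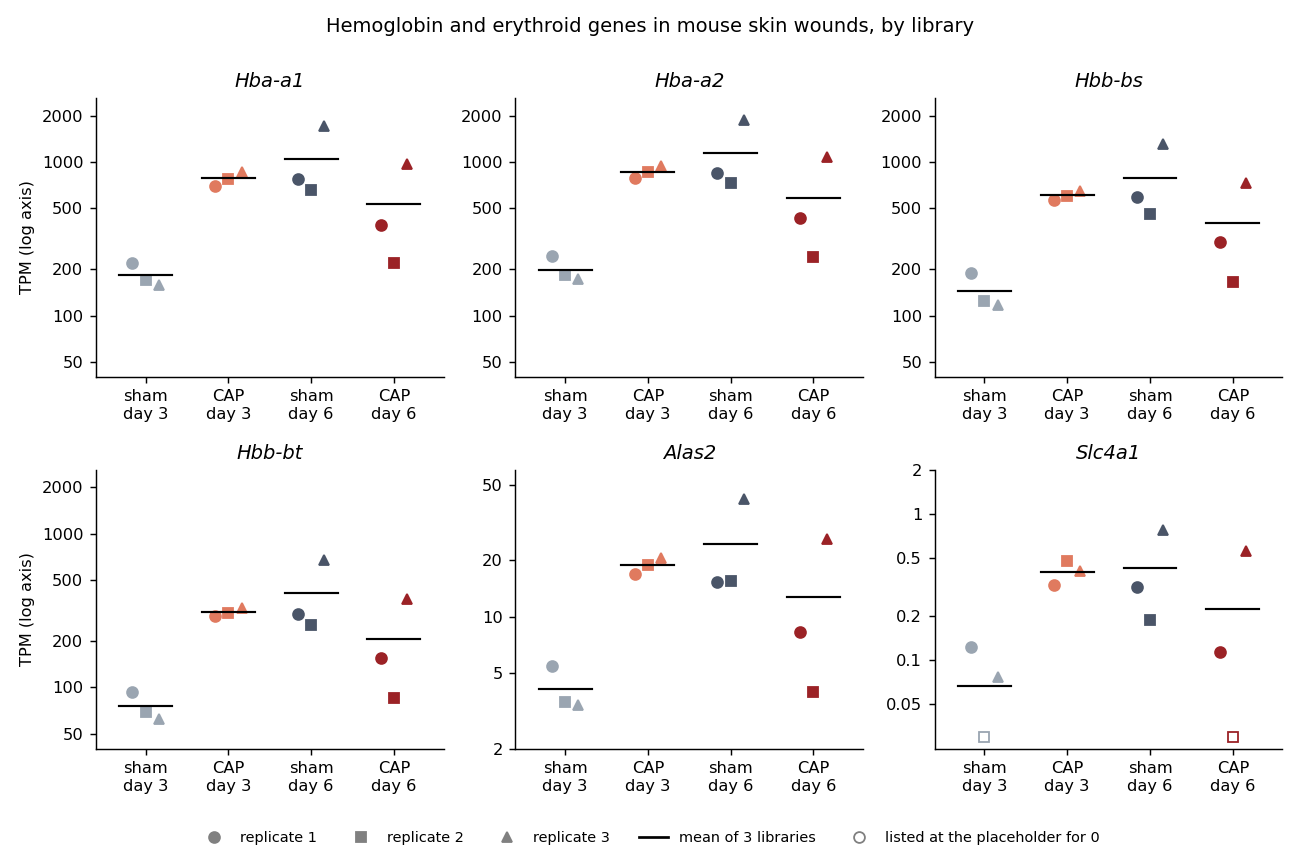
TPM of the 6 genes (log axes, which differ in range for Alas2 and Slc4a1) in the 4 groups. Each point is 1 library, its shape gives the replicate number, the line is the mean of 3 libraries, and open points are libraries listed at the placeholder for 0. In all 6 panels the 3 CAP-treated libraries of day 3 lie above the 3 sham libraries of day 3, and the day 6 groups overlap.

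By group means, the order of the levels was the same for the globins and Alas2, rising from sham day 3 over CAP day 6 and CAP day 3 to sham day 6. Neighbours in this order did not differ beyond their spread: the ranges of sham day 3 and CAP day 6 overlapped for each gene, as did those of CAP day 6 and CAP day 3, and those of CAP day 3 and sham day 6. The sum of the 6 genes was 753, 552 and 514 TPM in sham and 2357, 2566 and 2803 TPM in CAP-treated libraries at day 3, and 2527, 2113 and 5622 TPM in sham and 1288, 716 and 3184 TPM in CAP-treated libraries at day 6. This was 0.0514% to 0.562% of all TPM in a library. The spread within a group was also unequal: for Hba-a1 the SD was 81.0 TPM about a mean of 781 TPM in CAP-treated wounds at day 3, and 579.9 TPM about a mean of 1047 TPM in sham wounds at day 6.

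While the level of the globins varied 10.9-fold between libraries, their balance hardly varied. The ratio of summed α-globin to summed β-globin was 1.64 to 1.94 over the 12 libraries, with group means of 1.77 ± 0.115, 1.79 ± 0.0578, 1.85 ± 0.0783 and 1.83 ± 0.0135 (SD, n = 3 each; sham day 3, CAP day 3, sham day 6 and CAP day 6). Within the pairs, where the division of reads is uncertain, Hba-a2 stood at 1.08 to 1.12 times Hba-a1. Hbb-bt made up 33.1% to 35.9% of the β-globin sum. Alas2, which shares no 31-base stretch with other genes, stood at 5.57 to 8.22 TPM per 1000 TPM of globin. The lowest and highest of these Alas2 values were CAP-treated day 6 replicates 2 and 3, the libraries with the least and most globin of their group.

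**Figure D2:**
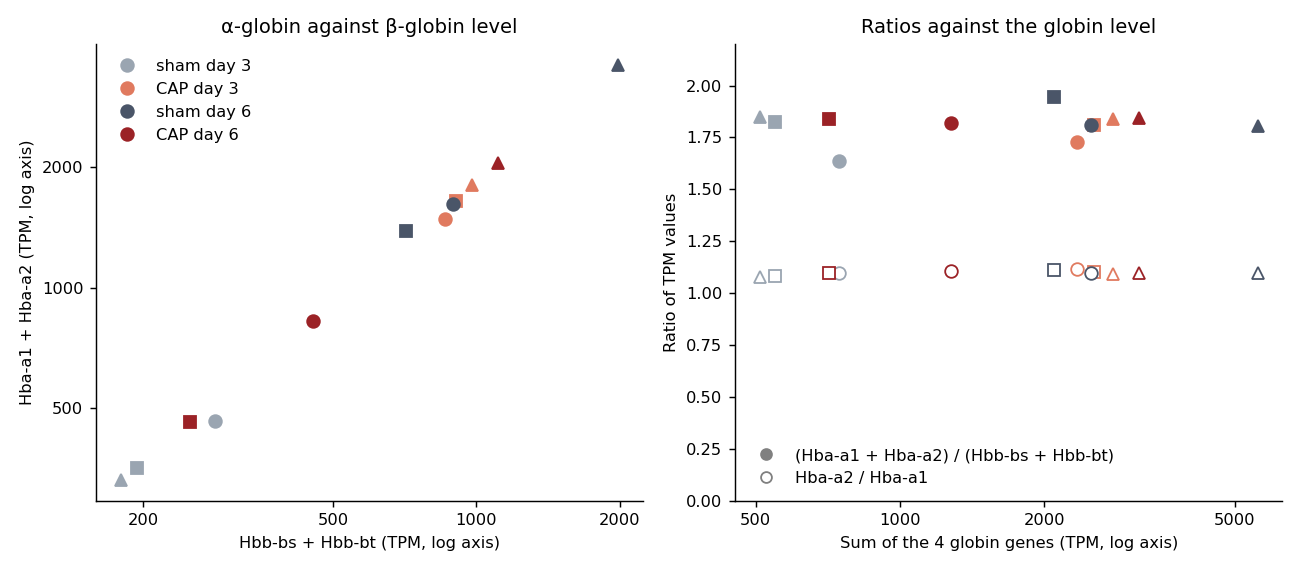
Left, summed α-globin against summed β-globin TPM in each of the 12 libraries (both axes log). Right, the ratio of α-globin to β-globin (filled points) and of Hba-a2 to Hba-a1 (open points) against the summed globin level (log axis). Colours give the group and shapes the replicate number. The α to β ratio stays between 1.64 and 1.94 over the whole range of levels.

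The comparison of CAP-treated with sham wounds at day 3 asks what the treatment changed early in healing. All 6 genes were higher in CAP-treated wounds. The ratio of the group means was 4.26 for Hba-a1, 4.31 for Hba-a2, 4.21 for Hbb-bs, 4.10 for Hbb-bt and 4.54 for Alas2. On the scale log2(TPM + 0.1), which understates the change of low genes, the differences were 2.0985, 2.12, 2.11, 2.06 and 2.18, and that of Slc4a1 was 1.66. For each of the 6, every CAP-treated library lay above every sham library, which held in the same direction for 2.86% of the 18330 genes tested. Since these values chose the genes, nothing is read from that count. Of all genes tested at day 3, 0.426% were higher in CAP-treated wounds past the threshold, an unadjusted p under 0.05 in limma with a difference of at least 2-fold. The median of all genes tested was −0.05. Slc4a1 had a mean under the filter of 0.3 TPM in the sham group and was left out of this and all other comparisons of 2 groups.

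At day 6, whose comparison of the treatments was not what the genes were picked on, the direction was the opposite but the difference was not past the threshold. The ratio of the CAP-treated to the sham mean was 0.505 for Hba-a1, 0.506 for Hba-a2, 0.508 for Hbb-bs, 0.498 for Hbb-bt and 0.527 for Alas2. In limma, Hba-a1 differed by −1.12 on the log2 scale (SE 0.58, 95% interval −2.4995 to 0.25, adjusted p = 0.322). The differences of Hba-a2, Hbb-bs and Hbb-bt were −1.12, −1.09 and −1.14, with upper ends of the 95% intervals at 0.25, 0.31 and 0.24. Alas2 differed by −1.16 (SE 0.70, 95% interval −2.82 to 0.50, adjusted p = 0.381). An exact permutation test of single genes, 2-sided, cannot go below 0.1 for 3 against 3 libraries and gave p = 0.3 for these 5 genes and p = 0.4 for Slc4a1, whose difference was −0.97. Thus 0 of the 5 tested genes were called, whereas 2.34% of the 18323 genes tested at day 6 were called lower. Of the 5, 0 had an unadjusted limma p under 0.05, beside 19.2% of all genes tested. In each gene, 2 of 3 CAP-treated libraries lay below all sham libraries and CAP-treated replicate 3 lay between them.

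The call at day 6 changed with single libraries and with the fit. Without CAP-treated replicate 3, all 5 tested genes passed the threshold (Hba-a1: −1.70), and without CAP-treated replicate 2, the library that stood apart, the median difference of the 6 genes was −0.61 in place of −1.12. It was −0.69 without sham replicate 3. In a joint fit of all 12 libraries, which shares the spread of the 4 groups, 4 of the 5 genes passed and Alas2 did not. The 5 genes varied together over the libraries and are not 5 separate results. The median of all genes tested was −0.12 at day 6, and 65.7% of them were lower in CAP-treated wounds by sign.

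Between day 3 and day 6 the genes moved in opposite directions in the treatments. In sham wounds the mean of day 6 was 5.71 times that of day 3 for Hba-a1, 5.76 for Hba-a2, 5.47 for Hbb-bs, 5.47 for Hbb-bt and 5.86 for Alas2. On the log2 scale the differences were 2.39, 2.41, 2.33, 2.33 and 2.38, and that of Slc4a1 was 1.58. All 6 genes were higher in each day 6 library than in each day 3 library, which held for 10.8% of the 18368 genes tested, and 2.13% of these were called higher. The median of the 6 genes was 2.36 with all libraries and 1.90 without sham day 6 replicate 3, the library with the most globin.

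In CAP-treated wounds the mean of day 6 was 0.678 times that of day 3 for Hba-a1, 0.677 for Hba-a2, 0.66 for Hbb-bs, 0.664 for Hbb-bt and 0.68 for Alas2. The log2 differences were −0.83, −0.83, −0.87, −0.86 and −0.96, and −1.05 for Slc4a1. The groups overlapped for all 6 genes, with replicates 1 and 2 of day 6 below all day 3 libraries and replicate 3 above them. The size of this difference rested on 1 library, since the median of the 6 genes was −0.86 with all libraries, −0.35 without CAP-treated day 6 replicate 2 and −1.43 without CAP-treated day 6 replicate 3.

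The CAP effect of day 6 minus that of day 3 was −3.22 for Hba-a1, −3.24 for Hba-a2, −3.20 for Hbb-bs, −3.19 for Hbb-bt, −3.34 for Alas2 and −2.63 for Slc4a1 on the log2 scale, with −0.06 as the median of all 20267 genes tested. Leaving out any single library kept the median of the 6 genes between −3.79 and −2.71. The comparisons share groups, the day 3 sham libraries entering both the treatment difference of day 3 and the change over time in sham wounds, so their values are not independent of each other.

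**Figure D3:**
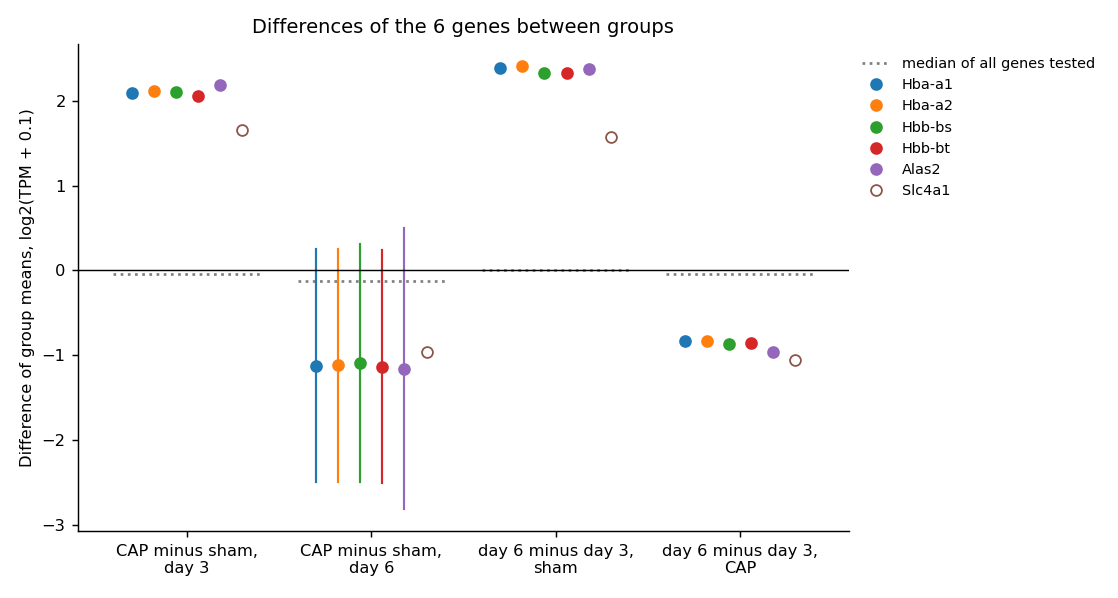
Differences of group means on the scale log2(TPM + 0.1) for the 6 genes in 4 comparisons. Vertical lines are 95% intervals from limma, drawn only for the day 6 comparison of the treatments, which was tested. Dotted lines are the medians of all genes tested, and open points are Slc4a1, which did not pass the filter. The genes lie between 1.58 and 2.41 at day 3 and in sham wounds over time, and between −0.83 and −1.16 in the other 2 comparisons.

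Other genes of red cells were taken from 6 lists, which hold 85 genes besides the 6 above, 83 of them in the tables. Few of them passed the threshold, and those under the filter of 0.3 TPM were not tested. At day 3, 2 of 62 tested were called higher in CAP-treated wounds (0.426% of all genes) and 1 lower (1.16% of all genes). At day 6, 1 of 60 was called higher (1.46% of all genes) and 0 lower, with 48 of 60 lower by sign against 65.7% of all genes. In sham wounds from day 3 to day 6, 4 of 60 were called higher (2.13% of all genes) and 1 lower (1.61% of all genes), and in CAP-treated wounds 1 of 61 was called higher (1.27% of all genes) and 1 lower (1.52% of all genes).

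The embryonic and minor globins were at or near the placeholder for 0. Hba-x, Hbq1a, Hbb-y, Hbb-bh0 and Hbb-bh2 were at it in all 12 libraries. Hbb-bh1 was above it in a single library (0.381 TPM, sham, day 6, replicate 3) and Hbq1b in 2. Of the other globins, Mb (myoglobin of muscle) and Cygb (cytoglobin, found in fibroblasts) were tested and not called in any comparison. The day 6 difference of Mb was −0.21 and that of Cygb −0.04.

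Of the membrane and skeleton of the red cell, 12 of 18 genes were tested at day 3 and 11 at day 6. By limma, 0 were called in any comparison. An unadjusted limma p under 0.05 was found for 1 at day 3 (6.6% of all genes) and 3 at day 6 (19.2% of all genes). In sham wounds over time it was found for 4 of 11 (16% of all genes). Most of the measured genes are also used outside the red cell. Epb42 (protein 4.2, which binds band 3) ranged from the placeholder to 0.349 TPM. Ank1 (ankyrin, also made in muscle) did not follow the globins, with 9.24 to 10.2 TPM in sham wounds at day 6 against 16.9 to 19.2 TPM in sham wounds at day 3, a log2 difference of −0.89 (adjusted p = 0.0146) that did not reach 2-fold.

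The other enzymes of heme synthesis varied little between libraries, while Alas2 varied 12.3-fold. All 12 listed genes were tested, and 0 were called by limma in any comparison. An unadjusted limma p under 0.05 was found for 0 at day 3 (6.6% of all genes) and 2 at day 6 (19.2% of all genes). The median difference was 0.01 at day 3, −0.05 at day 6, −0.05 in sham wounds over time and −0.13 in CAP-treated wounds over time. The summed level ranged from 351 TPM (CAP, day 6, replicate 2) to 438 TPM (CAP, day 3, replicate 2). Alas1, the form of the enzyme used outside the red cell, ranged from 51.8 to 79.8 TPM, with a day 3 difference of 0.07 against 2.18 for Alas2.

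Of the genes of late red cell maturation, 8 of 12 in the tables were tested, and their median difference was 0.21 at day 3, −0.34 at day 6 and 0.24 in sham wounds over time. Car1 (carbonic anhydrase 1) was at the placeholder in 10 libraries, and Ahsp, which chaperones free α-globin, was not analysed here. Tent5c, a poly(A) polymerase, and Bpgm, which makes 2,3-bisphosphoglycerate in red cells, had differences of 0.66 and 0.18 at day 3 and −0.58 and −0.69 at day 6, all under 2-fold. Without CAP-treated day 6 replicate 2 the day 6 difference of Tent5c was −0.26, and the median of the list −0.10.

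Of the 15 regulators and receptors of red cell formation that were found, 11 were at 0.3 TPM or more in all 12 libraries. The regulators Gata1 and Klf1 were scarce. Gata1, the defining transcription factor of red cells and megakaryocytes, ranged from the placeholder to 0.586 TPM, its highest value being in CAP-treated day 6 replicate 2, the day 6 library with the least globin. Klf1, which switches on adult β-globin, ranged from the placeholder to 0.504 TPM. Tal1, which works with Gata1 and is also made in endothelium, rose in sham wounds over time by 1.35 (adjusted p = 0.0473), or by 0.85 with a pseudocount of 1 TPM, where it was not called. Epor, the erythropoietin receptor, rose over time in both treatments, by 1.32 in sham wounds (adjusted p = 0.0782) and by 1.34 in CAP-treated wounds (adjusted p = 0.295). Both calls were lost with a pseudocount of 1 TPM (0.999 and 0.93). Its differences between treatments were −0.39 at day 3 and −0.36 at day 6, unlike those of the globins, and its difference between the CAP effects of the days was 0.03 (adjusted p = 0.987). Tfrc, the transferrin receptor that takes up iron, had differences of 0.42 at day 3 (adjusted p = 0.692), −0.26 at day 6 (adjusted p = 0.605; −0.15 without CAP-treated replicate 2) and 0.83 in sham wounds over time (adjusted p = 0.0334), all under 2-fold.

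Erfe, which encodes the hormone erythroferrone that erythroblasts release, went the other way from the globins at day 3 and over time in sham wounds. It was lower in CAP-treated wounds at day 3 by −1.16 (adjusted p = 0.692) and lower at day 6 than at day 3 in sham wounds by −1.59 (adjusted p = 0.0697). The day 3 call was lost without any of 3 libraries, with −1.10 without CAP-treated replicate 1, −0.87 without CAP-treated replicate 2 and −0.86 without sham replicate 1. Myb, a factor of immature blood cells and of hair follicle cells, was the only listed gene called at day 6 (1.06, adjusted p = 0.218), and lost the call without CAP-treated replicate 2 (0.80) or replicate 3 (0.996).

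The proteins that clear hemoglobin, heme and iron were abundant, and all 16 listed genes were tested. At day 3, 12 of 16 were higher in CAP-treated wounds by sign (37.8% of all genes) and 1 was called higher, Hpx (0.426% of all genes). Hpx encodes hemopexin, which binds free heme in plasma. It had 0.709, 0.663 and 0.719 TPM in sham and 1.66, 1.74 and 2.06 TPM in CAP-treated libraries, a rise of 1.27 (SE 0.23, adjusted p = 0.5). With a pseudocount of 1 TPM, which weighs more on a gene at this level, the difference was 0.73 and the call was lost. At day 6, 13 of 16 were lower in CAP-treated wounds by sign (65.7% of all genes) and 0 were called. An unadjusted limma p under 0.05 was found for 4 (19.2% of all genes). The list's median difference was 0.33 at day 3 and −0.44 at day 6, beside −0.05 and −0.12 for all genes tested. Without CAP-treated day 6 replicate 2 the day 6 median was −0.22. Hpx itself had a difference of 0.10 at day 6 (adjusted p = 0.926), and of 0.44 without that library.

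Hmox1, the heme oxygenase that breaks heme down, had 721, 330.3 and 445 TPM in sham and 383, 794 and 747 TPM in CAP-treated libraries at day 3, and the groups overlapped. At day 6 it had 722, 867 and 867 TPM in sham and 458, 318 and 669 TPM in CAP-treated libraries, and here all CAP-treated libraries lay below all sham libraries, as for 18% of all genes tested. The day 6 difference of −0.83 (adjusted p = 0.218) did not reach 2-fold. Hp, which encodes haptoglobin, the plasma protein that binds free hemoglobin, rose in sham wounds over time by 1.30 (adjusted p = 0.0325), and its day 6 difference was −0.90 (adjusted p = 0.413), and −0.17 without CAP-treated day 6 replicate 2. Cd163, the macrophage receptor for haptoglobin and hemoglobin, had 35.1 to 62.9 TPM in sham and 20.3 to 41.8 TPM in CAP-treated libraries at day 3 (difference −0.72, adjusted p = 0.787), against the direction of the globins. Slc11a1, an iron transporter of phagocytes, was called lower over time in CAP-treated wounds (−1.21, adjusted p = 0.414) and lost the call without any of 4 libraries, with −0.90 without CAP-treated day 3 replicate 3, −0.95 without day 6 replicate 2, −0.98 without day 6 replicate 1 and −1.19 without day 3 replicate 2.

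The CAP effect differed between the days past the threshold for 10 of 65 listed genes, 8 of them lower at day 6 than at day 3, beside 2.73% of all genes called in that direction and 2.18% in the other. Of the 8, 6 belong to the heme and iron list: Hmox1, Hpx, Flvcr1, Fth1, Ftl1 and Slc11a1. Fth1 and Ftl1 have near-identical copies in the genome, so their levels are uncertain. In the other direction, Gfi1b and Myb were called. None of the 10 had an adjusted p under 0.428. Of the 12 fits that left out 1 library each, Gfi1b kept the call in 12, Flvcr1 in 10, Fth1 in 9, Ftl1 in 7, Slc11a1 in 5, Hmox1 in 4, and Hpx, Tent5c and Myb in 2. Leaving out CAP-treated day 6 replicate 2 ended the call for all of these except Gfi1b (Flvcr1: −0.95). With a pseudocount of 1 TPM the difference of Gfi1b was 0.70 and its call was lost.

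**Figure D4:**
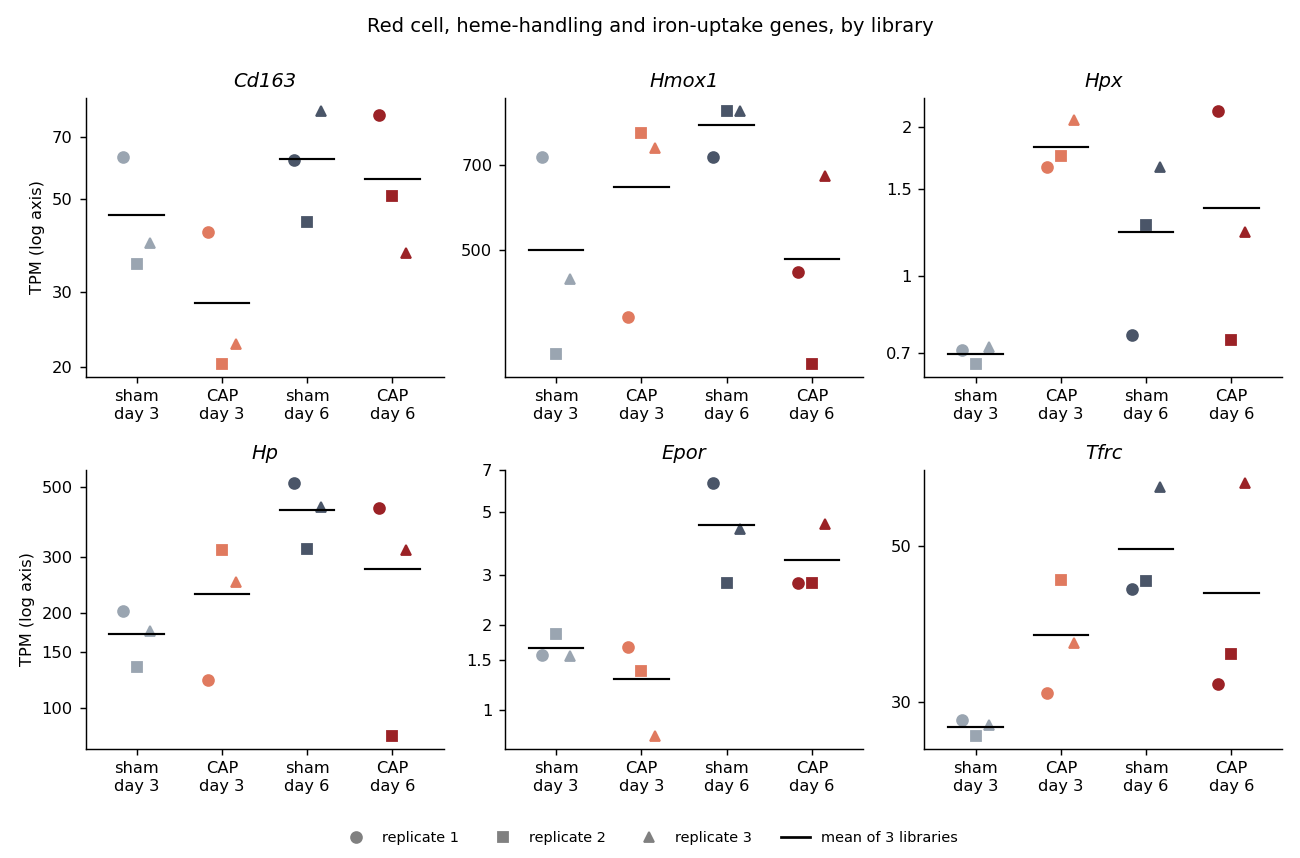
TPM of Cd163, Hmox1, Hpx, Hp, Epor and Tfrc in the 4 groups (log axes, which differ in range). Each point is 1 library, its shape gives the replicate number, and the line is the mean of 3 libraries. Hpx separates the treatments at day 3 only, and Epor separates the days.

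Among 16112 other genes whose mean over the libraries was 1 TPM or more, those whose pattern was close to the mean of the 6 genes on the log2 scale over the 12 libraries included Tbc1d15 (Pearson r = 0.94), Slc43a2 (0.94), Hvcn1 (0.94), the pseudogene Mpc1-ps (0.92), Bmx (0.91), Tmem82 (0.91) and CR974586.2 (0.90). The 12 points share 4 groups, and genes picked as the closest of many will be close in part for that reason, so these values are a description. Several spanned far less than the globins, with Tbc1d15 at 31.2 to 41.7 TPM and Hvcn1, a proton channel of white cells, at 12.3 to 42.9 TPM. Among the 6 genes themselves, r with the mean was at least 0.9966 for the globins and Alas2 and 0.95 for Slc4a1. Each of the 6 is part of that mean, which raises its r, so these values are not comparable with those of other genes. Hmox1 had r = 0.70, the endothelial gene Pecam1 0.61 and the platelet gene Pf4 0.08.

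Markers of cells that come with blood or vessels were set beside the globins. Of 12 platelet genes 4 were tested, and 2 of them were called higher in CAP-treated wounds at day 3 (Ppbp and Treml1), beside 0.426% of all genes. Their summed level was 255 to 439 TPM in sham and 497 to 549 TPM in CAP-treated libraries at day 3, and 147 to 204 TPM and 82.5 to 144 TPM at day 6. Ppbp, a platelet chemokine, was higher by 1.19 at day 3 (adjusted p = 0.727), a call lost without CAP-treated replicate 1 (1.07) or 2 (0.98) or sham replicate 2 (0.93) or 3 (0.99). Over time in sham wounds, where the globins were higher, Ppbp differed by −3.02 (adjusted p = 0.0193) and Treml1, a receptor of platelet granules, by 1.76 (adjusted p = 0.028). Pf4, platelet factor 4 and the most abundant of the list, had differences of 0.55 at day 3, −0.80 at day 6 and −0.97 in sham wounds over time. In CAP-treated wounds over time Ppbp differed by −5.37 (adjusted p = 0.0158) and Pf4 by −2.32 (adjusted p = 0.0783). Ppbp and Pf4 thus had the direction of the globins in the comparisons of treatments and over time in CAP-treated wounds. Over time in sham wounds they had the opposite one, since both were lower at day 6 in both treatments.

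Endothelial genes had the direction of the globins over time in sham wounds, but not at day 3 or over time in CAP-treated wounds. At day 3, 0 of 10 were called, with 2 at an unadjusted limma p under 0.05 (6.6% of all genes). Their sum was 174 to 218 TPM in sham and 162 to 245 TPM in CAP-treated libraries. In sham wounds over time 8 of 10 were called higher (median 1.39), beside 2.13% of all genes, and at day 6 the sum was 448 to 611 TPM in sham and 138 to 408 TPM in CAP-treated libraries, with 4 of 10 called lower, beside 2.34% of all genes. Without CAP-treated day 6 replicate 2, 0 of 10 were called lower at day 6 and the median difference was −0.52 in place of −1.0. Over time in CAP-treated wounds, where the globins were lower, 10 of 10 were higher by sign (43% of all genes). Their median there was 0.41 and 0 were called. Without CAP-treated day 6 replicate 2 that median was 0.87. Pecam1, the endothelial adhesion protein CD31, rose in sham wounds over time by 1.41 (adjusted p = 0.0173) and differed by −1.004 at day 6 (adjusted p = 0.246), a call lost without CAP-treated replicate 2 (−0.50), sham replicate 1 (−1.006), sham replicate 2 (−1.12) or sham replicate 3 (−0.89). Vwf, the von Willebrand factor of endothelium and platelets, was called higher in sham wounds over time (1.09, adjusted p = 0.0573) but not without sham day 6 replicate 3 (0.96) or sham day 3 replicate 1 (0.88).

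By group means, the macrophage sum had the same order of groups as the globins, from 4912 TPM (sham, day 3) over 6106 TPM (CAP, day 6) and 7118 TPM (CAP, day 3) to 8365 TPM (sham, day 6), while the neutrophil and keratinocyte sums had another order. By single genes the macrophage list did not follow the globins at day 3. There 6 of 10 genes were lower in CAP-treated wounds by sign (62.2% of all genes), with a median of −0.13. Of these 10, 0 were called higher and 2 lower, Ly6c2 and Ccr2 (1.16% of all genes). At day 6, 10 of 10 were lower by sign (65.7% of all genes). The neutrophil sum was 1919 to 6323 TPM in sham and 2050.4 to 5035 TPM in CAP-treated libraries at day 3, and 1967 to 3640 TPM and 413 to 2812 TPM at day 6. Of its genes, 1 of 10 was called higher at day 3 (0.426% of all genes) and 2 of 9 lower at day 6 (2.34% of all genes). Without CAP-treated replicate 2, 1 of 9 was called lower at day 6, beside 171 of 18364 genes tested. S100a8, an abundant neutrophil gene, was called over time in CAP-treated wounds (−1.93, adjusted p = 0.432), a call lost without day 6 replicate 2 (−1.09) or 3 (−1.95) or day 3 replicate 1 (−1.84) or 2 (−1.62). The macrophage sum was 4054 to 5716 TPM and 4703 to 10135 TPM at day 3, and 7065 to 10114 TPM and 4149 to 9307 TPM at day 6, so that the treatments overlapped on both days. The keratinocyte sum was 32540 to 40302 TPM in sham and 50345 to 104580 TPM in CAP-treated libraries at day 6. Of its genes, 3 of 10 were called higher, beside 1.46% of all genes. Without CAP-treated replicate 2 this was also 3 of 10, beside 140 of 18364 genes tested. Elane and Mpo, which mark neutrophil precursors of the marrow, were at the placeholder in 11 and 8 libraries and reached 0.0722 and 0.318 TPM. The sum of that list was 1.47 to 10.8 TPM in sham and 4.78 to 15.0 TPM in CAP-treated libraries at day 3, and 8.66 to 10.999 TPM and 2.82 to 11.8 TPM at day 6. The part of platelets, vessels, white cells and the keratinocyte share in the globin differences was not tested.

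**Figure D5:**
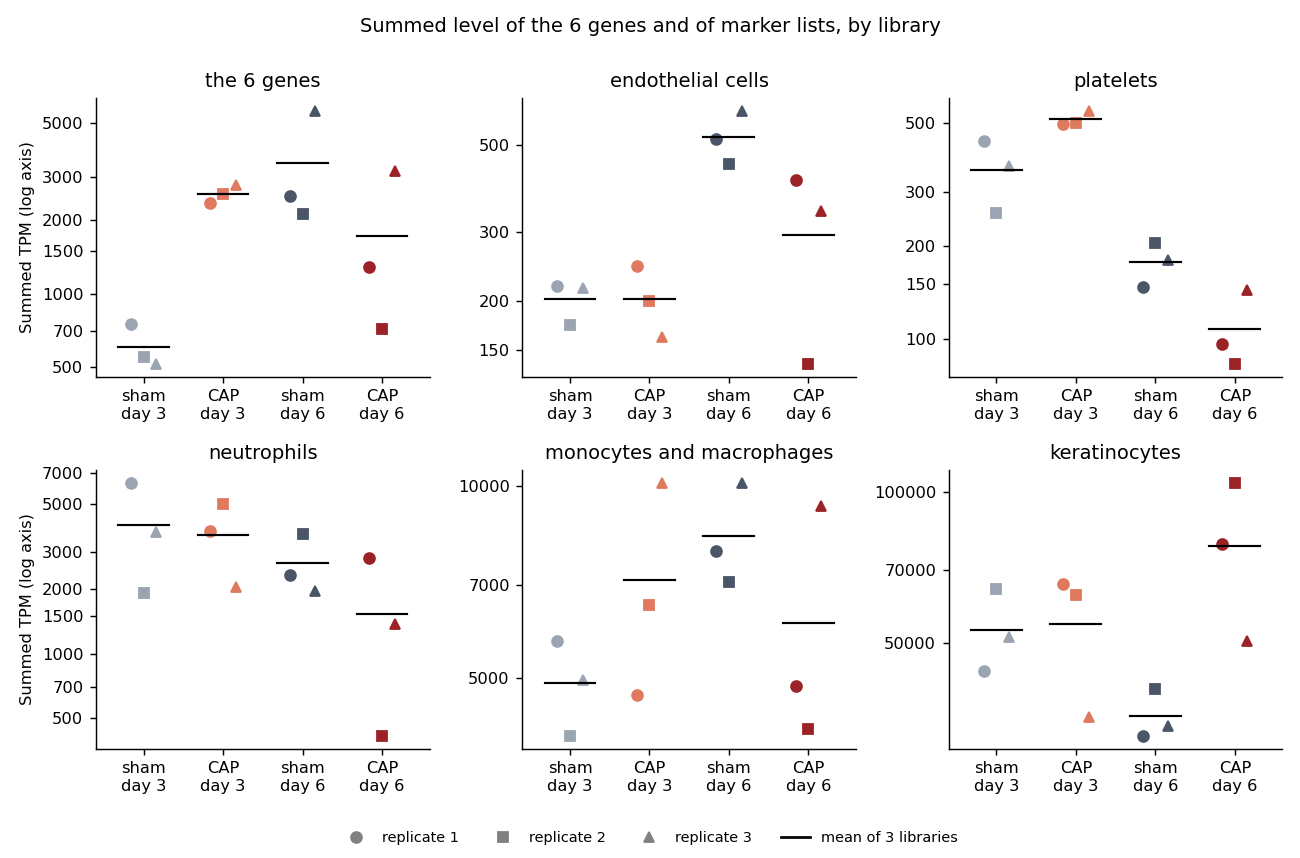
Summed TPM of the 6 genes and of 5 marker lists in the 4 groups (log axes, which differ in range). Each point is 1 library, its shape gives the replicate number, and the line is the mean of 3 libraries. At day 3 the CAP-treated libraries lie above the sham libraries for the 6 genes and for platelets, while the endothelial sums overlap.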

How the data were processed

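RNA came from wound tissue kept in RNAlater, and the library kit was SureSelect XT HS2 mRNA. Per the submitters' processing notes the authors used bcl2fastq, Trimmomatic 0.36 and the mm10 build, and the study's methods name StringTie for quantification. The authors deposited 1 table of TPM per library, with 55487 genes and 0.0001 in place of 0 (56.6% of values). The TPM of a library sum to 1000003.08 to 1000003.23. TPM carry no read depth, so no counting interval is given and the number of libraries limits the precision.

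Genes whose mean reached 0.3 TPM in each group compared (for the difference between the days, in at least 1 of 4 groups) were tested on log2(TPM + 0.1) with limma 3.58.1 in R 4.3.3, with a trend in the variance and Benjamini-Hochberg adjustment over all genes tested. A gene was called at an unadjusted p under 0.05 and at least 2-fold. The scripts were tested on simulated data. Single genes at day 6 were also compared by an exact permutation test. The alternatives were a pseudocount of 1 TPM, no filter, median-ratio scaling, quantile normalization, TPM rescaled without the 6 genes, a joint fit of all libraries, a replicate block, and leaving out each library.

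The 6 genes and the lists were chosen with earlier results of these data known. Named were the 6 genes, list genes past the threshold, defining or marker genes of the lists and genes most like the 6 in pattern, and other genes were named after their values were seen (Treml1, Bpgm, Alas1, Mb, Cygb, Hbb-bh1, Hbq1b and Apex2). Of 171 listed genes 169 matched the tables, 1 of them by a RefSeq synonym (Fam46c, as Tent5c), and Ahsp and Rhex were not analysed here. Some listed genes enter the counts but are not reported by name here. Gene positions come from GENCODE M21 and promoter windows from RefSeq (GRCm38.p6). Calculations and figures used Python 3.11.15, numpy 2.4.6, pandas 2.3.3 and matplotlib 3.10.9.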

Additional observations from a re-analysis of the deposited data

Results flagged for a closer look

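For 11 genes, drawn from the 6 lists and a few chosen marker genes, the CAP effect on the log2 scale differed between day 6 and day 3. The threshold was an unadjusted p of 0.05 and 2-fold by a test of that difference in limma. Of all 20267 genes tested, 2.73% passed it as lower at day 6 and 2.18% as higher. Marker genes outside the choice also passed it, such as Treml1 (lower) and Krt1 (higher). None of the 11 passed the adjustment over all genes tested. Lower at day 6 than at day 3 were Ppbp (−2.34), Ftl1 (−1.39), Slc11a1 (−1.36), Pf4 (−1.35), Fth1 (−1.33), Tent5c (−1.24), Hmox1 (−1.19), Hpx (−1.17) and Flvcr1 (−1.15). Higher at day 6 than at day 3 were Gfi1b (2.29) and Myb (1.17). Their adjusted p ranged from 0.428 to 0.44. Ppbp and Pf4 kept the call under all 18 alternatives. Fth1 and Ftl1 encode the chains of ferritin, which stores iron, and Flvcr1 a heme exporter. Gfi1b, a transcriptional repressor found in red cell and platelet precursors, was scarce and did not pass the filter in any comparison of 2 groups. It lost the call with a pseudocount of 1 TPM (0.70).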

How the results depend on the processing

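The 6 genes kept their direction in every comparison under every alternative run. With 1 library left out, their median difference was 1.99 to 2.25 at day 3, −1.70 to −0.61 at day 6, 1.90 to 2.63 in sham wounds over time, −1.43 to −0.35 in CAP-treated wounds over time and −3.79 to −2.71 for the difference between the days. At day 6, 0 of 5 passed the threshold, 4 in the joint fit and 0 to 5 with a library left out. In the replicate block fit 5 of 5 passed at day 6. Within a day the column names of both treatments carry the same 3 numbers, whose meaning is not given, and the labels do not say that these pair wounds. Deviations of same-numbered libraries correlated with r of −0.108 to 0.038 at day 3 and 0.017 to 0.094 at day 6. At day 6 each CAP-treated library correlated best with the sham library of its own number. Replicate 3 of the CAP-treated wounds had a larger r, 0.22, between the days. Values this small do not show whether the numbers pair wounds.

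With a pseudocount of 1 TPM, genes called higher and lower were 43 and 111 at day 3, 157 and 228 at day 6, 234 and 171 in sham wounds over time, 144 and 155 in CAP-treated wounds over time, and 246 and 334 between the days, against 78 and 212, 268 and 429, 392 and 296, 231 and 276, and 441 and 553. With no filter they were 210 and 358 at day 3, 419 higher at day 6, 653 and 503 in sham and 399 and 443 in CAP-treated wounds. Quantile normalization gave 255 lower at day 6. With a library left out they were 55 to 150 and 149 to 360 at day 3, 140 to 458 and 171 to 1025 at day 6, 342 to 540 and 299 to 344 in sham wounds, 198 to 352 and 149 to 534 in CAP-treated wounds, and 348 to 662 and 288 to 1115 between the days.

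Calls among the 6 lists, 3, 1, 5, 2 and 10 in the same order, were 1, 0, 3, 1 and 6 with a pseudocount of 1 TPM. With no filter they were 5 at day 3 and 8 in sham wounds, and in CAP-treated wounds 4 with quantile normalization and in the joint fit. With a library left out they were 2 to 5, 0 to 6, 6 to 7, 1 to 6 and 3 to 11. The causes were not tested. Of the values of single genes, 2173 kept their side of the threshold, 125 lost it and 70 gained it, with 0 reversed. Depth is unknown, so genes near 0 TPM, such as Slc4a1 and Gata1, allow no firm order between groups.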
